A study of Mus musculus with 6 samples.

Results

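Toll-like receptors are the germline-encoded sensors of microbial and damage-derived molecules on innate immune cells, and the retinal mRNA of 10 of them was followed here through light damage and minocycline treatment. The members were the 10 rows of the deposited table, of 23420 genes in all, that carry the symbols Tlr1 to Tlr9 and Tlr13. RNA-seq was done on whole mouse retinas in 6 libraries. The labels give the strain as CD1 and describe 2 libraries of control retinas without treatment, 2 of retinas taken 4 days after 1 h of light at 10000 lux, and 2 of retinas with the same exposure plus minocycline, a tetracycline antibiotic, injected intraperitoneally at 45 mg/kg each day for 4 days. The methods of the study instead name adult BALB/cJ mice of both sexes, aged 10 to 14 weeks, a higher light intensity and a start of minocycline before the exposure. They mention solvent injections only where indicated, and the labels do not say whether the light-exposed retinas without minocycline received them. All receptor values come from mixed retinal tissue.

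A Toll-like receptor binds its ligand through leucine-rich repeats and signals through an intracellular TIR domain, which recruits the adaptor Myd88 in most members and Ticam1 (TRIF) in Tlr3. Tlr1, Tlr2, Tlr4, Tlr5 and Tlr6 act at the cell surface, where Tlr2 pairs with Tlr1 or Tlr6 on bacterial lipoproteins, Tlr4 senses lipopolysaccharide with Ly96 and Cd14, and Tlr5 senses flagellin. Tlr3, Tlr7, Tlr8, Tlr9 and Tlr13 act in endosomes on nucleic acids and depend on the transporter Unc93b1. In the neural retina, resident microglia are a known source of many of these receptors.

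The libraries held 15205930 to 22856922 counts, and 1 count corresponded to 0.0437 to 0.0714 CPM, where CPM is the count per 1000000 after scaling of the library by TMM. The 10 receptors together took 87 and 73 counts in controls 1 and 2, 493 and 1859 counts in the light-exposed pair, replicate 2 being the higher, and 201 and 159 counts in the minocycline libraries, called A and B because their columns cannot be tied to a replicate number. The retinal identity of the libraries was seen in the 8 rod markers, which were detected in each library with a summed level of 38400 to 92900 CPM. Light-exposed replicate 2 had the lowest rod level and the highest level of microglial markers (719 CPM, beside 245 CPM in light-exposed replicate 1). Control 1 was female by its Xist count of 77778, beside 25 to 188 in the other libraries, so the sexes were not balanced between groups. This bears on Tlr7, Tlr8 and Tlr13, which lie on the X chromosome. Tlr7 held 5 counts in the female control and 4 in the male one, and Tlr13 8 and 14.

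Tlr1 and Tlr6 are neighbouring genes on chromosome 5 (64924679 to 64933563 and 64952031 to 64960097, GRCm38) and are near-identical over part of their coding sequence. Of all stretches of 50 bases in the annotated Tlr1 transcripts, the length of the sequenced reads, 14.8% also occurred in Tlr6, and 12.3% of those of Tlr6 occurred elsewhere, nearly all in Tlr1. The longest identical run spanned 229 bases within the longest open reading frame of both. Its first 60 bases are shown because a read from them cannot be assigned to either gene.
Start of the run shared by Tlr1 and Tlr6: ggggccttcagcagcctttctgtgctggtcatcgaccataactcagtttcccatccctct
Counts of this pair are therefore uncertain in how they were split. Tlr3 shared 2.88% of its stretches with Gm45542, an annotated antisense gene on the opposite strand. For Tlr2, Tlr5, Tlr7, Tlr8, Tlr9 and Tlr13 the shared portion was 0%, and for Tlr4 it was 0.222%.

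The promoters of the receptors are shown because 8 of the 10 genes rose after light, by unequal amounts. Windows of 250 bases before a RefSeq transcript start (GRCm38.p6) were found for 8 receptors, in 10 windows, and Tlr4 and Tlr7 were not matched. Both strands were searched for GAGGAA, the core bound by ETS factors such as PU.1, and for GAGGAAGT, a longer form that contains it. The ISRE (GAAA with another GAAA 2 bases further on), AP-1 (TGANTCA) and the NF-kB consensus were searched as well. The GAGGAA core was present in windows of Tlr1, Tlr8, Tlr9 and Tlr13, and in 23.3% of all 32851 windows. The longer GAGGAAGT was present in Tlr1 alone, 23 bases before its start, and in 2.44% of all windows. The NF-kB consensus was present in Tlr2 and Tlr3 and in 7.25% of all windows. The ISRE was present in Tlr6 (2.98% of all windows) and the AP-1 motif in Tlr9 (6.75%). The windows with these motifs are shown for the 4 receptors with GAGGAA and the 2 with the NF-kB consensus, 5′ to 3′ on the strand of the gene, with each motif in capitals.
Tlr1, chr5:64933559-64933808, minus strand: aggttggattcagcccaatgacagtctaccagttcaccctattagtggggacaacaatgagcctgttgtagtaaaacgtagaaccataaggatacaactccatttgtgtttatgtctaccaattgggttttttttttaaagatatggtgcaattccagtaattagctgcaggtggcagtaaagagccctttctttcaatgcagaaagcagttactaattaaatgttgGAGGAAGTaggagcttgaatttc
Tlr8, chrX:167264330-167264579, minus strand: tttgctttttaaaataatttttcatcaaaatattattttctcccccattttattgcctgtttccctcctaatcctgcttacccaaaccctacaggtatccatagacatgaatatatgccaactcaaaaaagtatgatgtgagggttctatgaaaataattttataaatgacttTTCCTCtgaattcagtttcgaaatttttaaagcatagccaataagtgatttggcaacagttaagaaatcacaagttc
Tlr9, chr9:106222348-106222597, plus strand: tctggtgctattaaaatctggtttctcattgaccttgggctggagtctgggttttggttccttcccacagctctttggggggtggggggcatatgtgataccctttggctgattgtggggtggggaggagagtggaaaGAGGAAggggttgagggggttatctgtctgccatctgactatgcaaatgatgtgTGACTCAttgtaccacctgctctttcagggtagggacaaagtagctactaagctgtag
Tlr13, chrX:106143025-106143274, plus strand: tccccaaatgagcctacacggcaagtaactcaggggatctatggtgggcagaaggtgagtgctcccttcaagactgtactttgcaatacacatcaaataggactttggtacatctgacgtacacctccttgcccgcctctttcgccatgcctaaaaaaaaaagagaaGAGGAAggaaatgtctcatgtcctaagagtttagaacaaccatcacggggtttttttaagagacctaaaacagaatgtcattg
Tlr2, chr3:83841609-83841858, minus strand: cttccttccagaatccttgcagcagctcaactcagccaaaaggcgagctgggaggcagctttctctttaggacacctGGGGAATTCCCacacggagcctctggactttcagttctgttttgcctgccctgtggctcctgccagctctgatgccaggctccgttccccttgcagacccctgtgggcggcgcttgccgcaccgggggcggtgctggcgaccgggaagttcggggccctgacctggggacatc
Tlr3, chr8:45410381-45410630, minus strand: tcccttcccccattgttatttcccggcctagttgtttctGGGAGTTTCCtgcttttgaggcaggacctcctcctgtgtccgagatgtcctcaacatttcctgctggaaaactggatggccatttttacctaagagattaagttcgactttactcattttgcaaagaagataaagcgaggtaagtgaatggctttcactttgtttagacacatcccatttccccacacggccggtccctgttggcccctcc
In Tlr13 the core starts 83 bases before the transcript start, in Tlr9 112 bases before it, with the AP-1 motif at 58 bases, and in Tlr8 it lies on the opposite strand at 77 bases. The match in Tlr2 is an overlapping set of NF-kB matches at 172 and 173 bases, and that in Tlr3 lies at 211 bases. The second annotated windows of Tlr1 and Tlr6 and the window of Tlr5 held none of these motifs. A match says only that these letters occur in the window.

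In control retinas, the receptor mRNAs were scarce and unequal. Levels between genes were compared as CPM per kilobase of annotated exon. Tlr3, the sensor of double-stranded RNA, had the highest mean level at 0.476 ± 0.0628 CPM per kilobase (SD, n = 2, as for all values with SD below), followed by Tlr2 at 0.424 ± 0.171 CPM per kilobase. The ranges of these 2 genes overlapped. Tlr13, a sensor of bacterial ribosomal RNA, came next at 0.181 ± 0.0679 CPM per kilobase, below both Tlr2 values and above both Tlr7 values. Tlr7 (0.0781 ± 0.0131), Tlr4 (0.0637 ± 0.000685), Tlr1 (0.0533 ± 0.0754) and Tlr6 (0.0379 ± 0.0265) followed, and from Tlr4 to Tlr6 each overlapped its neighbour in this order. Tlr6, Tlr9, Tlr8 and Tlr5 were at the limit of detection, with 4, 2, 1 and 1 counts in the control libraries together and at most 3 in either. For a gene without a count in a library, the upper 95% bound on its expected count is about 3. This corresponds to 0.214 CPM in control 1 and 0.211 CPM in control 2 and covers counting error only. Tlr2 and Tlr3 together made up 70.1% and 61.6% of the receptor CPM in the controls.

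**Figure D1:**
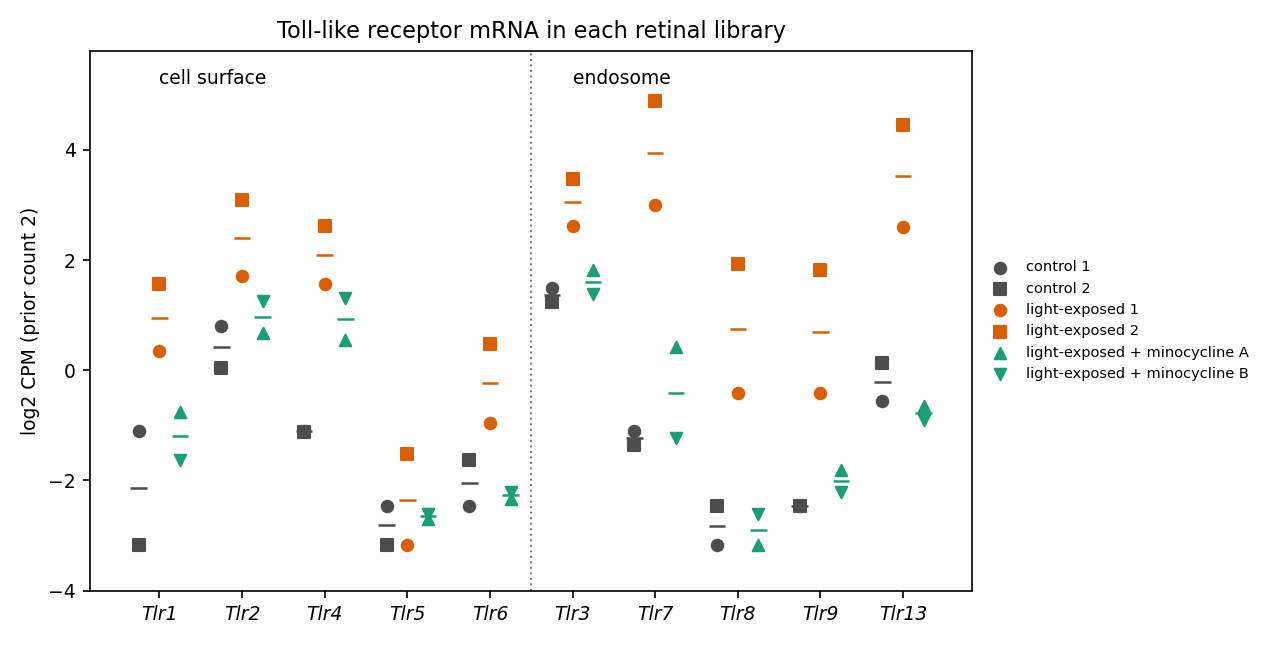
Level of each receptor mRNA in the 6 retinal libraries, on the vertical axis as log2 CPM with a prior count of 2. Symbols are single libraries and short lines the mean of 2 libraries per group, with cell surface receptors on the left and endosomal receptors on the right. Light-exposed libraries lie above the controls for each receptor apart from Tlr5, and light-exposed replicate 2 is the highest library for each receptor.

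After light exposure, 8 of the 10 receptors could be tested, and the mRNA of each of these 8 rose (quasi-likelihood test of edgeR, p adjusted by Benjamini-Hochberg over 14349 genes and required to be under 0.05). Of these, 7 also reached a cutoff of 2 on the log2 scale, as in the methods of the study, and were called higher, namely Tlr1, Tlr2, Tlr4, Tlr7, Tlr8, Tlr9 and Tlr13. Over all tested genes, 2.89% were called higher. Without the fold cutoff, 7.52% passed the adjusted p upward and 3.8% downward. Only Tlr2 and Tlr3 passed the filter on low counts (0.642 CPM) in both groups. The other 6 entered the test through the light-exposed libraries, and Tlr5 and Tlr6 were too low to enter.

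Of the cell surface receptors, Tlr2, the common partner of the lipoprotein receptors, had 23 and 13 counts in the controls and 54 and 177 counts in light-exposed replicates 1 and 2. Both light-exposed libraries were above both controls, and the level changed from 1.28 ± 0.515 to 5.77 ± 3.71 CPM, a log2 fold change of 2.19 (standard error 0.53, adjusted p = 0.0318). Tlr4, the lipopolysaccharide receptor, held 5 counts in each control and 49 and 127 counts after light. The groups were well apart, with 0.354 ± 0.00381 CPM in control and 4.44 ± 2.24 CPM after light, and the log2 fold change of 3.64 (standard error 0.54, adjusted p = 0.00818) was the one with the smallest p of the family. Tlr1 held 5 and 0 counts in the controls and 20 and 60 counts after light. Its log2 fold change was 3.47 (standard error 0.89, adjusted p = 0.0411), and it is one of the genes affected by reads shared with Tlr6. Without control 1, which leaves the control with 0 counts, the Tlr1 value was 8.15, and without control 2 it was 2.48. Tlr6 itself held 1 and 3 counts in the controls and 7 and 27 counts after light. Without a test, the ratio of the summed counts was 6.27 (95% interval 2.24 to 24.3, exact binomial, counting error only). Tlr5, the flagellin receptor, held 1 and 0 counts in the controls and 0 and 5 counts after light, so that no difference was detectable at this depth.

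Of the endosomal receptors, Tlr7, a sensor of single-stranded RNA, held 5 and 4 counts in the controls and 135 and 621 counts after light. The level was 0.319 ± 0.0535 CPM in control and 18.7 ± 15.2 CPM after light, with a log2 fold change of 5.85 (standard error 0.96, adjusted p = 0.0312). Tlr13 held 8 and 14 counts in the controls and 102 and 459 counts after light. It changed from 0.777 ± 0.292 to 13.8 ± 11.2 CPM, with a log2 fold change of 4.15 (standard error 0.79, adjusted p = 0.0349). Tlr9, the receptor for unmethylated CpG DNA, held 1 count in each control and 11 and 72 counts after light, a ratio of 30.6 (8.21 to 257, exact binomial, counting error only) with an adjusted p of 0.0352. Tlr8, a close relative of Tlr7 that lies beside it on the X chromosome, held 0 and 1 counts in the controls and 11 and 78 counts after light, a ratio of 65.7 (11.5 to 2620) with an adjusted p of 0.0469. For Tlr8 and Tlr9 the controls were so close to 0 that the fitted fold depends on the prior count. Tlr3 held 38 and 32 counts in the controls and 104 and 233 counts after light. It had the smallest fitted change, with a log2 fold change of 1.80 (standard error 0.37, adjusted p = 0.0181), under the fold cutoff.

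**Figure D2:**
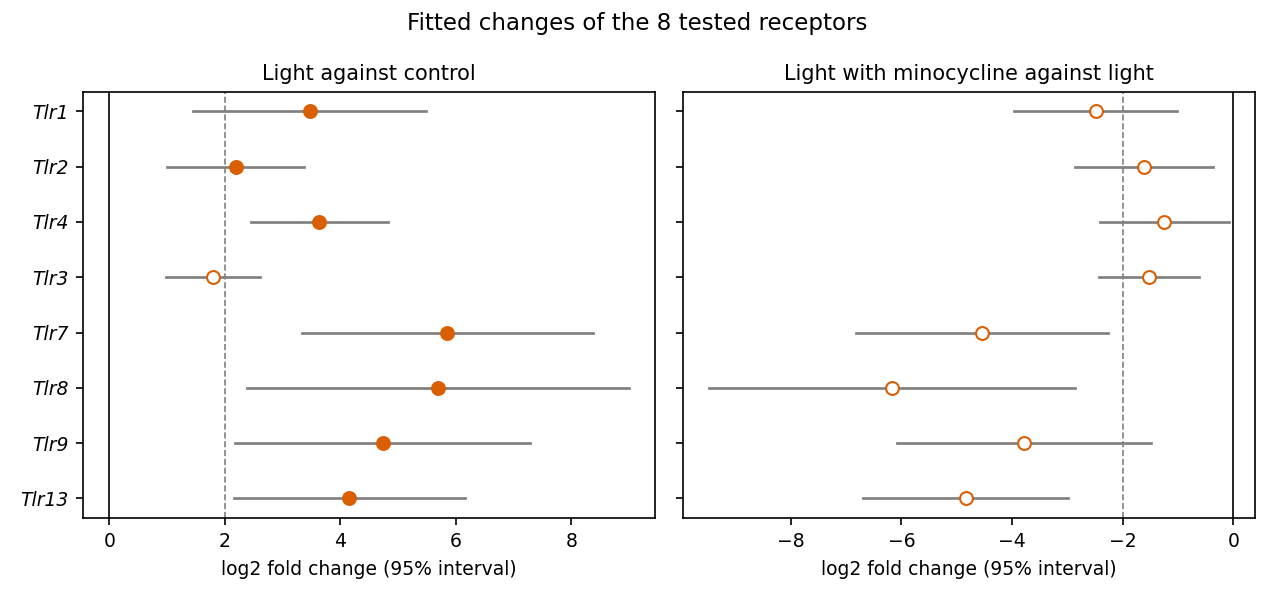
Fitted log2 fold change with its 95% interval for the 8 tested receptors, for light against control (left) and light with minocycline against light (right). Filled symbols are called (dashed line, cutoff of 2 in either direction, with the adjusted p under 0.05), which holds for 7 receptors on the left and 0 on the right.

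Counting all 10 receptors, the light-exposed libraries lay above both controls in 9, beside 30.1% of all tested genes. The median ratio of summed counts was 12.4 over the 10 receptors and 1.01 over the 16922 genes with counts in both groups. The order of the receptors was not that of the controls. After light, Tlr7 (4.57 ± 3.74 CPM per kilobase) and Tlr13 (3.22 ± 2.60 CPM per kilobase) had the highest means, although the ranges from Tlr7 down to Tlr3 overlapped from one gene to the next. Tlr7 and Tlr13 together made up 14.9% and 24.7% of the receptor CPM in the controls and 48.1% and 58.1% of it after light. Tlr2 and Tlr3 made up 32.0% and 22.1% after light. The share of all 5 endosomal receptors was 59.8% and 71.2% in the controls and 73.6% and 78.7% after light.

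The calls depended on single libraries. Light-exposed replicate 2 was the higher of its pair for all 10 receptors, by 1.82 times for Tlr3 and 5.77 times for Tlr8 at the ends of the range for the 9 receptors with counts in both. Without it, 3 receptors were called (Tlr4, Tlr7 and Tlr13), and the log2 fold changes were 2.99 for Tlr4, 4.60 for Tlr7 and 2.93 for Tlr13. Tlr1 (2.67), Tlr2 (1.31) and Tlr3 (1.29) did not pass, and Tlr8 and Tlr9 were too low to be tested. Without light-exposed replicate 1, 9 receptors were called, Tlr3 and Tlr6 among them. Over all genes the number called higher moved as well, from 415 to 247 without light-exposed replicate 2 and to 738 without light-exposed replicate 1. With 1 control left out, none was called among 9 tested in edgeR, although 4 (without control 1) and 5 (without control 2) had an unadjusted p under 0.05. Over all genes 3 (without control 1) and 13 (without control 2) were then called higher. For the 8 receptors of the main test, the directions stayed positive in each of these fits that tested them. In such fits the remaining single library is assumed to vary like the other group.

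Retinas with minocycline were then compared with light exposure alone, the comparison that asks whether treatment altered the induced receptors. None of the 8 tested receptors was called in edgeR's quasi-likelihood test, which called 0.0339% of all 14750 tested genes lower and 0.0136% higher. The adjusted p-values of the receptors lay between 0.0698 for Tlr13 and 0.21 for Tlr4. Each of the 8 had an unadjusted p under 0.05 with a negative log2 fold change, beside 12.1% of all tested genes. Only Tlr2, Tlr3 and Tlr4 passed the filter (0.519 CPM) in both groups, and the other 5 entered through the light-exposed libraries, where they were high. DESeq2 without shrinkage of fold changes called Tlr7, Tlr8, Tlr9 and Tlr13 lower, and a fit of all 6 libraries called Tlr7, Tlr8 and Tlr13 lower. Over all genes, the number called lower was 5 in the pairwise edgeR test, 297 with DESeq2 and 218 in the fit of all libraries. Without a filter on low counts, edgeR called the cell surface receptor Tlr1 (adjusted p = 0.0424) and Tlr13 lower, among 209 genes. No test compared cell surface with endosomal receptors. Since the light-exposed libraries enter both comparisons, the values with minocycline are not independent of those for light against control.

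Of the endosomal receptors, Tlr13 held 12 and 8 counts in minocycline A and B, beside 102 and 459 counts after light alone, with a log2 fold change of -4.84 (standard error 0.75, adjusted p = 0.0698 in edgeR). Tlr7 held 28 and 6 counts, beside 135 and 621 counts, with a log2 fold change of -4.54 (standard error 0.89, adjusted p = 0.0879). The Tlr7 value was -5.8 without minocycline A and -3.9 without minocycline B. For Tlr13 and Tlr7 each minocycline library lay below each light-exposed library, and minocycline A was the higher of its pair. Tlr8 held 0 and 1 counts and Tlr9 4 and 2 counts with minocycline, and the ratios of summed counts to light alone were 0.0103 (0.000258 to 0.0588) and 0.0662 (0.0236 to 0.150), again for counting error only. Tlr3 held 78 and 47 counts with minocycline and 104 and 233 counts without, with a log2 fold change of -1.52 (standard error 0.38, adjusted p = 0.0936).

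Of the cell surface receptors, Tlr1 held 11 and 4 counts with minocycline, with a log2 fold change of -2.49 (standard error 0.63, adjusted p = 0.0948 in edgeR), and Tlr6 held 2 and 2 counts. Tlr2 held 34 and 43 counts with minocycline, below both light-exposed libraries, with a log2 fold change of -1.61 (standard error 0.53, adjusted p = 0.152). Tlr4 held 31 and 45 counts with minocycline, and its higher minocycline library, at 2.38 CPM, came close to light-exposed replicate 1 at 2.85 CPM. Its log2 fold change of -1.24 (standard error 0.49, 95% interval -2.41 to -0.08, adjusted p = 0.21) was the smallest of the family. Without light-exposed replicate 2, it was -0.63. Tlr2 then had -0.75, Tlr3 -1.04, Tlr1 -1.71, Tlr9 -2.13, Tlr7 -3.32 and Tlr13 -3.63. In that fit edgeR called Tlr13 alone of the receptors, among 24 genes called lower, and without light-exposed replicate 1 it called 7 receptors among 406 genes. The minocycline libraries lay below both light-exposed libraries for 9 of the 10 receptors, beside 28.1% of all tested genes, and the median ratio of summed counts was 0.136 over the 10 receptors and 0.987 over 17158 genes.

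Minocycline-treated retinas were also set against controls. Of the 10 receptors, 3 could be tested, and none was called in edgeR, beside 0.134% of tested genes called higher and 0% called lower. Tlr4 alone had an unadjusted p under 0.05 in edgeR, beside 5.39% of tested genes with such a p upward. Tlr4 entered the test through the minocycline libraries alone, whereas Tlr2 and Tlr3 passed the filter (0.573 CPM) in both groups. DESeq2 gave an unadjusted p under 0.05 for 1 of the 10 receptors and 897 of 18120 genes, and called 0 receptors and 101 genes higher. The minocycline libraries lay above both controls for Tlr4 and Tlr9 and below both for Tlr13, beside 15.5% and 24.5% of all tested genes. Its 31 and 45 counts with minocycline stood above the 5 counts of each control, at 1.87 ± 0.725 and 0.354 ± 0.00381 CPM, with a log2 fold change of 2.41 (standard error 0.53, 95% interval 1.21 to 3.61, unadjusted p = 0.00147, adjusted p = 0.17). Tlr4 was called without a filter on low counts (adjusted p = 0.023) and without minocycline A (adjusted p = 0.00262), fits in which 96 and 276 genes of the whole table were called higher, beside 19. In the other settings that tested it the adjusted p lay above the threshold. Minocycline A had the lower Tlr4 level of the pair. Tlr2 and Tlr3 had log2 fold changes of 0.59 (-0.44 to 1.62) and 0.30 (-0.52 to 1.11), and their groups overlapped.

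For the receptors that were not tested, the summed counts were compared with exact binomial intervals, which hold counting error and not the spread between mice. Tlr7 had a ratio to control of 2.55 (1.2 to 6.05), although minocycline B, with 6 counts, lay within the range of the controls in CPM. Tlr13 had a ratio of 0.615 (0.318 to 1.18), and its interval included 1. For Tlr1, Tlr5, Tlr6, Tlr8 and Tlr9 the interval included 1 and was wide, from 0.363 to 20.5 for Tlr9. As a share of the rise after light, the level that remained with minocycline was 37.1% for Tlr4 (60.6% without light-exposed replicate 2, 26.7% without light-exposed replicate 1), 13.4% for Tlr2, 7.71% for Tlr3 and 2.47% for Tlr7. Without light-exposed replicate 2 the last 3 values were 32.3%, 13.1% and 5.99%, and without light-exposed replicate 1 they were 8.48%, 5.47% and 1.55%. By single library, minocycline A and B gave 24.5% and 49.6% for Tlr4, 4.66% and 22.2% for Tlr2, 15.3% and 0.0906% for Tlr3, and 4.94% and -0.00885% for Tlr7. The share was 9.2% for Tlr1 (17% without light-exposed replicate 2), with 16.6% and 1.82% by single minocycline library. It was 3.56% for Tlr9 (12.2% without light-exposed replicate 2), -0.408% for Tlr8 and -2.32% for Tlr13. Tlr5 (15.3%) and Tlr6 (-6.33%) rest on few counts. In the order of levels with minocycline, Tlr2 (0.624 ± 0.185 CPM per kilobase) and Tlr3 (0.566 ± 0.126) were again highest and overlapped, and Tlr4 (0.336 ± 0.130) followed below both.

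**Figure D3:**
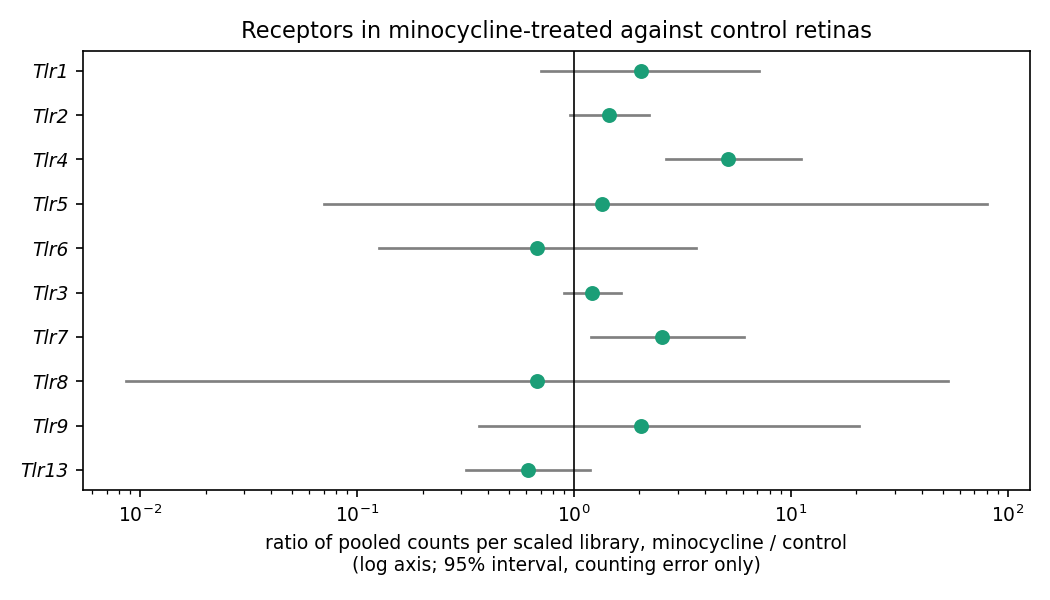
Ratio of summed counts between minocycline-treated and control retinas, scaled by library, for the 10 receptors on a logarithmic axis, with exact 95% intervals for counting error. The intervals of Tlr4 (2.65 to 11.1) and Tlr7 (1.2 to 6.05) lie above 1, and the other 8 include it.

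Genes of other tissue moved with the minocycline group and stand beside the Tlr4 values. The 6 markers of corneal epithelium had a summed level of 8.99 and 0.773 CPM in control, 5.88 and 14.7 CPM after light, and 184 and 262 CPM in minocycline A and B. All 6 were detected in both minocycline libraries. Minocycline B had the higher sum and the higher Tlr4 and Tlr2 levels, although Krt14 and Aldh3a1 of the list were higher in minocycline A. Whether tissue outside the neural retina contributed to the Tlr4 level was not tested. Markers of monocytes and neutrophils were low, with 3 to 47 summed counts per library for 7 genes and 0 counts of Elane throughout. Some of them moved with the receptors. Ccr2 held 0 counts in both controls, 10 and 12 counts after light, and 1 and 0 counts with minocycline (log2 fold change against light -4.27, adjusted p = 0.0734 in edgeR). S100a8 held 1 and 0, 7 and 24, and 4 and 2 counts in the same order. Others of the list went another way, with 3 and 0, 3 and 3, and 9 and 27 counts of Plac8, 6 and 2, 4 and 3, and 6 and 3 counts of Ly6c2, and 2 and 0, 6 and 4, and 10 and 2 counts of S100a9. The part of these cells in the receptor values was not tested. Of the 5 lymphocyte markers, Cd3e and Ncr1 were at 0 in each library, and the list summed to 8 to 26 counts.

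Microglial markers moved with the receptors. The 12 microglial genes summed to 55.2 and 51.2 CPM in control, 245 and 719 CPM after light, and 88.8 and 48.5 CPM with minocycline A and B. After light, 6 of the 12 were called higher, with a median log2 fold change of 3.09. The 7 leukocyte genes summed to 12.6 and 17.2 CPM in control, 144 and 471 CPM after light, and 25.5 and 14.9 CPM with minocycline. Mueller cell markers were also higher after light, by less. Of 6, 5 had both light-exposed libraries above both controls, beside 30.1% of all tested genes. The median log2 fold change of the list was 0.60, and Slc1a3 alone passed the adjusted p (1.13, adjusted p = 0.0124 in edgeR). With minocycline, Slc1a3 (-0.75) and Aqp4 (-0.94) were the 2 of 6 with both libraries below both light-exposed ones, beside 28.1% of all tested genes. In this comparison 0 of the 6 passed the adjusted p. The part of Mueller cells in the smaller receptor changes, such as that of Tlr3, was not tested. The 6 vessel markers summed to 46.4 and 39.1 CPM in control, 51.4 and 55 CPM after light, and 56.7 and 55.6 CPM with minocycline A and B. Against control, 4 of the 6 were higher in both minocycline libraries, beside 15.5% of all tested genes. Their list had a median log2 fold change of 0.57, and 0 passed the adjusted p. The part of vessels in the Tlr4 level was not tested. The 6 pigment epithelium markers summed to 111 to 348 CPM. After light, 0 of either list passed the adjusted p. In tissue RNA, a larger number of microglia and more receptor mRNA per microglial cell cannot be told apart, and the same holds in the other direction for minocycline. Receptor counts were therefore also expressed per 1000 counts of the 12 microglial genes, as a description without a test.

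On this scale, the receptors summed to 112 and 100 counts in control, 117 and 123 counts after light, and 99 and 173 counts with minocycline A and B. The light-exposed libraries lay just above the controls for this sum. The single receptors went separate ways. Tlr7 stood at 6.46 and 5.49 in control, 32.1 and 40.9 after light, and 13.8 and 6.54 with minocycline. Tlr13 stood at 10.3 and 19.2, 24.2 and 30.2, and 5.91 and 8.72 in the same order. Tlr3 instead stood at 49.1 and 44.0 in control, below that at 24.7 and 15.4 after light, and at 38.4 and 51.3 with minocycline. Tlr2 went from 29.7 and 17.9 in control to 12.8 and 11.7 after light, with 16.7 and 46.9 under minocycline. Tlr4 stood at 6.46 and 6.87 in control, 11.6 and 8.37 after light, and 15.3 and 49.1 with minocycline, where both libraries exceeded the others. Relative to the 7 leukocyte genes, Tlr7 also lay above control in both light-exposed libraries (54.6 and 62.5, beside 28.4 and 16.3), whereas Tlr13 did not (41.2 and 46.2, beside 45.5 and 57.1). Tlr4 on this reference stood at 28.4 and 20.4 in control, lower at 19.8 and 12.8 after light, and at 53.1 and 160 with minocycline. The sum of all receptors per 1000 leukocyte counts was 494 and 298 in control, 199 and 187 after light, and 344 and 564 with minocycline. The position of the light-exposed libraries relative to the controls therefore depended on the reference genes for Tlr4, Tlr13 and the sum, and likewise for Tlr6 and Tlr9.

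**Figure D4:**
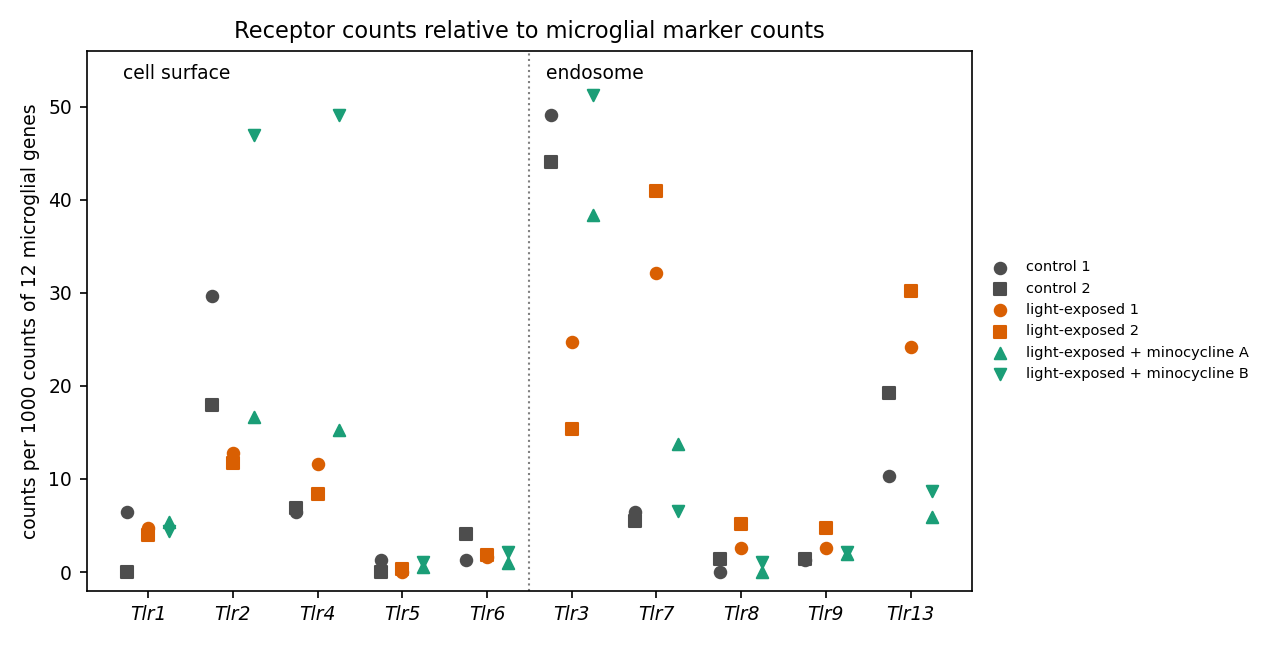
Receptor counts per 1000 counts of 12 microglial genes in each of the 6 libraries, with cell surface receptors on the left and endosomal receptors on the right. Symbols are single libraries. Tlr7 and Tlr13 lie highest in the light-exposed libraries, Tlr3 lies lowest there, and Tlr4 is highest in the minocycline libraries.

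The rest of the pathway was read from lists by role. Among 7 co-receptors, all were higher in both light-exposed libraries than in both controls, beside 30.1% of all tested genes. Lbp, not tested, held 0 and 1 counts in the controls, 2 and 3 after light, and 3 and 3 with minocycline. Cd36 held 37 and 15 counts in the controls and 99 and 769 after light, and did not pass (adjusted p = 0.227 in edgeR). Of 6 tested, Cd14, Cd180 and Ly86 were called higher and Tril passed the adjusted p alone. Cd180, a receptor-like partner of Ly86, held 2 and 0 counts in the controls, 87 and 388 counts after light, and 9 and 0 counts with minocycline (adjusted p = 0.024 after light, 0.0844 with minocycline, in edgeR). Cd14 had a log2 fold change of 2.40 (standard error 0.49, adjusted p = 0.0231) after light and -2.31 (adjusted p = 0.0844) with minocycline against light. Ly96, the partner that Tlr4 needs for lipopolysaccharide, had values of 1.33 (adjusted p = 0.0954) and -1.36 (adjusted p = 0.158).

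Of the 7 chaperones and trafficking factors, Unc93b1 alone was called. Unc93b1 had 32 and 33 counts in the controls, 278 and 788 counts after light, and 93 and 45 counts with minocycline, with a log2 fold change of 3.55 (standard error 0.44, adjusted p = 0.0108) after light and -3.04 (standard error 0.48, adjusted p = 0.0698) with minocycline. Hsp90b1 (gp96), a chaperone of the endoplasmic reticulum, and Cnpy3, which works with it in folding these receptors, had log2 fold changes of -0.24 and -0.20 after light, and neither passed the test. Of the 6 adaptors, 2 were called higher after light. Pik3ap1 (BCAP), which links these receptors to PI3-kinase, had a log2 fold change of 2.95 (standard error 0.52, adjusted p = 0.0132), and Ticam2 (TRAM), the bridge from Tlr4 to Ticam1, held 0 and 2 counts in the controls and 11 and 55 counts after light (adjusted p = 0.0375). Myd88, with 0.60 (standard error 0.29, adjusted p = 0.196), and Tirap, with 0.06, did not pass.

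Among 15 kinases and ubiquitin ligases, 1 was called higher (Ikbke, log2 fold change 2.88, adjusted p = 0.0469), Irak2 and Irak4 passed the adjusted p upward (0.78 and 1.49), and Tab3 passed it downward (-0.75, adjusted p = 0.0224). The median log2 fold change of this list was -0.11. Among 9 transcription factors, Irf5 (3.36), Irf8 (3.39) and Nfkb2 (2.34) were called higher, in log2 fold change. Nfkb1, Relb and Irf7 passed the adjusted p upward, with 0.78, 1.93 and 1.22, and Irf3, the factor downstream of Ticam1, passed it downward, with -0.74 (adjusted p = 0.0152). Of 8 tested inhibitors, Irak3, a kinase-dead member of the Irak family, was called higher (2.45, adjusted p = 0.023). Tnfaip3 (A20), a ubiquitin-editing inhibitor of NF-kB, passed the adjusted p downward with -1.24 (standard error 0.23, adjusted p = 0.0157). Tnfaip3 had 7411 and 5241 counts in the controls, 3830 and 3274 counts after light, and 6995 and 8552 counts with minocycline, so that the light-exposed libraries were the lowest. The 8 rod markers moved the same way as Tnfaip3, Irf3 and Tab3. The rod log2 fold changes lay between -0.96 and -0.41 after light (median -0.80). With minocycline against light they lay between 0.55 and 1.01 (median 0.73). After light 1 of the 8 passed the adjusted p, beside 3.8% of all tested genes downward, and 0 passed with minocycline. The part of rods in the values of Tnfaip3, Irf3 and Tab3 was not tested.

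Of 9 endogenous ligands, Fn1 and Tnc passed the adjusted p upward after light (0.93 and 0.96) and none was called. Of 12 target genes, 4 reached the test after light, and Ccl2 (2.48, adjusted p = 0.0315) and Ccl5 (3.14, adjusted p = 0.0249), both chemokines, were called higher. Il1b, with 2 to 13 counts per library, and Tnf, with 1 to 11, stayed below the filter. Ccl3 held 6 and 0 counts in the controls, 12 and 31 counts after light and 0 counts in both minocycline libraries. Ptgs2, the inducible cyclooxygenase, went the other way, with 55 and 27 counts in the controls, 14 and 39 after light and 71 and 166 with minocycline, and did not pass in any comparison. With minocycline against light, none of the genes of these 8 lists of co-receptors, signal carriers, ligands and targets was called in edgeR.

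**Figure D5:**
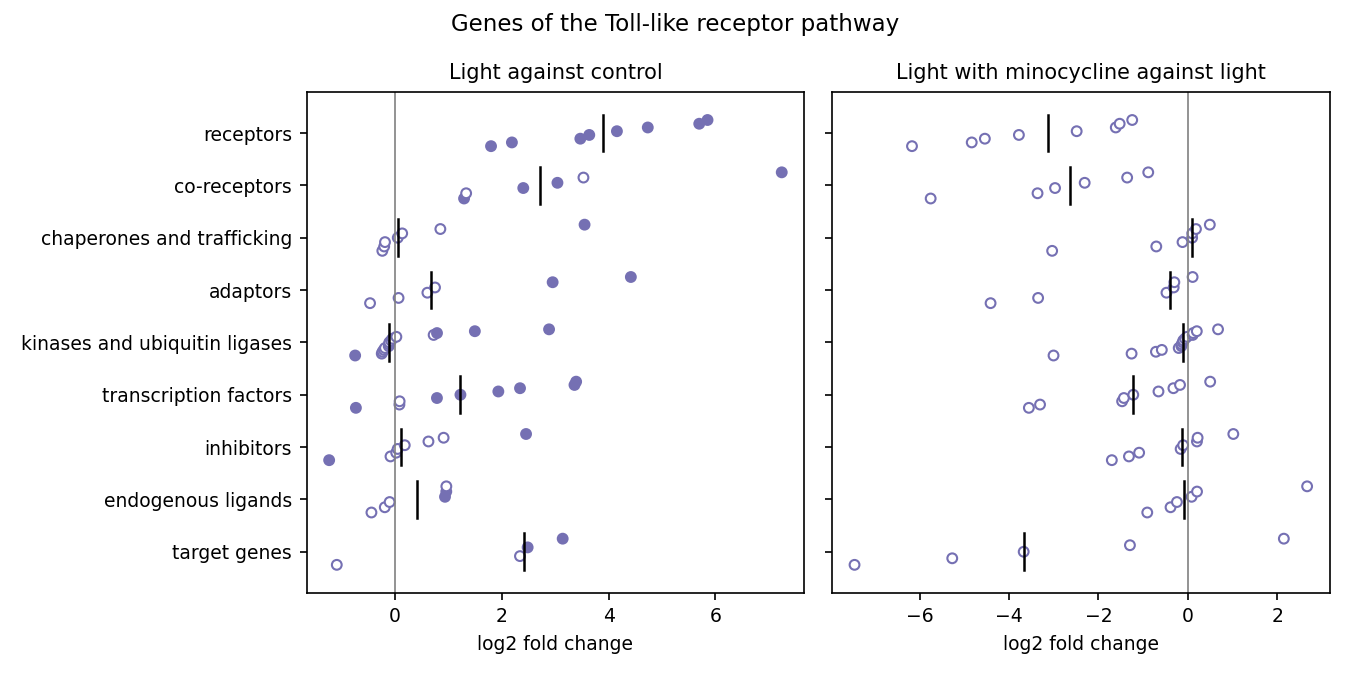
Fitted log2 fold change of each tested gene of the pathway by role, for light against control (left) and light with minocycline against light (right). Each symbol is a gene, filled where its adjusted p is under 0.05, and each vertical line is the median of its list. On the left, the receptors lie between 1.80 and 5.85, and the median is 2.72 for co-receptors and -0.11 for kinases and ubiquitin ligases.

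Genes with the most similar course were found for the 8 receptors with at least 10 counts on average, as the 3 genes with the smallest root mean square difference in centred log2 CPM over the 6 libraries, out of 14712. Tlr3 was closest to Rgs10, Flnc and Cxcl16, with differences of 0.082 to 0.089, and Tlr2 to Cd93, Tgif1 and Ube2l6 (0.147 to 0.189). Tlr4 was closest to Procr (0.128), the endothelial protein C receptor, and then to H2-Aa and Irgm1. Tlr7 was closest to Cxcr4, C1qc and Fcgr3 (0.256 to 0.274). Tlr13 and Tlr8 shared Apobec1 and Cd300a among their closest genes, with Arl11 for Tlr13 and Fam46c for Tlr8. Tlr9 was closest to 1810011H11Rik, Slc7a7 and Sfpi1 (0.134 to 0.176), the last of which encodes PU.1. Tlr1 was closest to Cd48, Serpine2 and Olfml3 (0.315 to 0.378). The 6 libraries share 3 groups, so that any gene high after light tends to resemble these receptors.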

How the data were processed

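The authors prepared stranded poly-A mRNA libraries, sequenced single reads, aligned them to mm10 with STAR and counted them per gene with RNA Express. The deposited values are whole-number counts per gene without scaling, although the data statement calls them normalized, and 0 value columns went unused. Which annotation, which versions of STAR and RNA Express and which strand setting were used is not given in the sources used here. The same header stands above both minocycline columns. Depth was 15205930 to 22856922 counts per library.

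Each pair of groups was tested in edgeR 4.0.16 (R 4.3.3) by the quasi-likelihood F test, with filterByExpr, TMM, robust estimation and Benjamini-Hochberg adjustment over all tested genes. A gene was called if it passed 0.05 after adjustment and 2 on the log2 scale in either direction. Standard errors were derived from the fold change and its F value. p-values measure the spread between 2 libraries per group, which the study calls biological replicates. Ratios of summed counts used TMM-scaled library sizes and exact binomial intervals of 95%. Coordinates and exon lengths are from GENCODE M21 (GRCm38), promoters from RefSeq. The members, the 9 lists of pathway genes, the 9 marker lists and the tests were chosen with earlier results of these data known. The named genes were the members, list genes passing a test or highest in CPM, and the nearest genes. Some list genes (chosen after their values were seen) were named for their counts. Alternatives were DESeq2 1.42.0, edgeR without robust estimation, other scalings and filters, a fit of all libraries, a replicate block and leaving out each library.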

Additional observations from a re-analysis of the deposited data

How the results depend on the processing

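After light, 7 receptors were called higher, and 1 when at least 10 counts were required in every library, a filter that left 2 receptors to test. With DESeq2, without robust estimation, with other scaling, without a filter or with all libraries in 1 fit, the number stayed between 6 and 8. Over all genes, 415 were called higher, 144 under the filter of 10 counts and 402 to 566 under these other settings. With total library size the median of all genes moved to a log2 fold change of 0.24, and Tlr3 was called as well. Leaving out a library gave 0 to 9 calls. No filter ended the calls of Tlr7 and Tlr13 (adjusted p = 0.102 and 0.0906 in edgeR) and added Tlr6, and the fit of all libraries ended that of Tlr1 (adjusted p = 0.054). With the replicate number as a block for light against control, 7 receptors and 473 genes were called higher. The adjusted p in edgeR moved from 0.0312 to 7.02e-21 for Tlr7 and from 0.00818 to 2.72e-08 for Tlr4. The deviations of control 1 and light-exposed replicate 1 from their group means had a correlation of -0.01 across genes. With 2 libraries per group this is 1 contrast, which cannot show whether the numbers pair the samples. No paired analysis was possible because of a missing replicate number where minocycline is compared.

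With minocycline against light, 0 receptors were called lower, but 4 with DESeq2, 2 without a filter (Tlr1 and Tlr13) and 3 with all libraries in 1 fit, and 0 to 7 when a library was left out. Over all genes the number called lower moved from 5 to 297, 209 and 218, and lay between 4 and 406 when a library was left out. With minocycline against control, 0 receptors were called higher, 1 without a filter (Tlr4) and 0 to 1 when a library was left out. Over all genes, 19, 96 and 3 to 276 were called higher in the same order. The cause of these changes was not tested. None of the receptors tested in a main fit changed direction in any alternative that tested it. At this depth, Tlr5, Tlr6, Tlr8 and Tlr9 held at most 4 counts in any control or minocycline library. Groups of 2 allow no test for outlying libraries.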

Other observations

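The other receptors of the family in mice were almost silent. Tlr11 held 0 counts in each of the 6 libraries. Tlr12 held 0 counts in both controls, 1 and 3 counts after light, and 0 and 2 counts in minocycline A and B.

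In minocycline-treated against control retinas, 2 of the 52 other pathway genes tested had an unadjusted p under 0.05 in edgeR, both higher with minocycline. This is 3.85% of them, beside 5.39% of all tested genes. Nfkb2, a subunit of the alternative NF-kB pathway, held 23 and 25 counts in the controls and 68 and 63 counts with minocycline, with a log2 fold change of 0.93 (standard error 0.36, adjusted p = 0.623). Bgn, which encodes the matrix proteoglycan biglycan, a described ligand of Tlr2 and Tlr4, held 24 and 10 counts in the controls, 12 and 22 counts after light, and 72 and 151 counts with minocycline, with a log2 fold change of 2.24 (standard error 0.59, adjusted p = 0.322). Neither passed the adjusted threshold. For Bgn, as for Tlr4, minocycline B was the higher library.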
